A study of Rattus norvegicus with 16 samples.

Results

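The 8 genes of 3 vasoactive systems were examined in rat glomeruli, chosen by gene name among the 13222 genes of the expression table. All 8 of 8 were present and were used whatever their values. They were the peptide gene Edn1 (ENSRNOG00000014361), its processing enzyme Ece1 (ENSRNOG00000014241), the endothelin receptor genes Ednra (ENSRNOG00000012721) and Ednrb (ENSRNOG00000010997), and the endothelial nitric oxide synthase gene Nos3 (ENSRNOG00000009348). The other members were the natriuretic peptide receptor genes Npr1 (ENSRNOG00000014684), Npr2 (ENSRNOG00000015991) and Npr3 (ENSRNOG00000019184).

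The study compared glomeruli, the filtration units of the kidney, from healthy rats and from rats given puromycin aminonucleoside (PAN), a podocyte toxin that gives a model of nephrotic syndrome. All 16 animals were male Wistar rats of about 175 g, with 4 rats in each of 4 groups and 1 library per rat. The control group was healthy, and the other groups received PAN intravenously. By daily oral gavage, 1 PAN group received a sham vehicle, 1 received pioglitazone and 1 received GQ-16, both described by the study as PPARgamma agonists. Glomeruli were isolated by sieving on day 11, and poly(A) RNA was made into stranded libraries from 200 ng of total RNA. The labels give no dose of PAN or of either drug, no age, and do not say whether the healthy rats received vehicle. Sieved glomeruli hold podocytes, endothelial cells and mesangial cells together, and may hold fragments of tubule and arteriole. In such bulk RNA, fewer cells of a type and less RNA per cell cannot be told apart.

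Endothelin-1, made from a larger precursor by endothelin-converting enzyme, is a strong constrictor. Its A receptor on mesangial and smooth muscle cells mediates contraction, and its B receptor on endothelial cells is known for clearing endothelin and for releasing nitric oxide. Nitric oxide from endothelial nitric oxide synthase activates soluble guanylate cyclase in neighbouring cells, while natriuretic peptides act on the membrane guanylate cyclases Npr1 and Npr2. Both routes raise cyclic GMP, which relaxes mesangial and smooth muscle cells, and Npr3 removes natriuretic peptides from the extracellular fluid.

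The sequences just before the starts of the ligand gene and of both endothelin receptor genes are shown because the receptors share a ligand and had different values across the groups. Each is the 250 bases before the RefSeq start on the gene's own strand, from build GRCr8. The Edn1 promoter lies at chr17:22666688-22666937 on the minus strand, that of Ednra at chr19:47137674-47137923 on the plus strand, and that of Ednrb at chr15:87086766-87087015 on the minus strand. Capitals mark every match to a searched motif.
Edn1: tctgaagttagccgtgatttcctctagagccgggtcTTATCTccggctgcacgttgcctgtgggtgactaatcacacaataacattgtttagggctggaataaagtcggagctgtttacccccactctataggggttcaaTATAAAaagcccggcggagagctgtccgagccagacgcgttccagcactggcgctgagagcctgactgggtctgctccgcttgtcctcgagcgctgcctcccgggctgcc
Ednra: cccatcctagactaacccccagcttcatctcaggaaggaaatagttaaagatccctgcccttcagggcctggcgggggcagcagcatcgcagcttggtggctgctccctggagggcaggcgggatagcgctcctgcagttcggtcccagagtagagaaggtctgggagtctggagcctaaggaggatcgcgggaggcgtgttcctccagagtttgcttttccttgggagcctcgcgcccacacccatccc
Ednrb: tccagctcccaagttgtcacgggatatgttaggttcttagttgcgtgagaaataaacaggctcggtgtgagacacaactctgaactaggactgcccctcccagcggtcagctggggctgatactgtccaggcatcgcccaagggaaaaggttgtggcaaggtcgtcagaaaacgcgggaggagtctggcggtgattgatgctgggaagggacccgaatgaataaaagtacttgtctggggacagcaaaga
In the Edn1 promoter, the capitals mark a GATA motif (AGATAA, here read on the opposite strand) that begins 214 bases before the start and a TATA box (TATAAA) that begins 110 bases before it. Neither receptor promoter held a match in this window. The other motifs searched on both strands were AP-1 (TGANTCA), a PPAR motif (AGGTCA, any base, AGGTCA), the serum response element CArG and Sp1 (GGGCGG). Among the 33469 rat promoters of this length, 10.3% held the GATA motif, 12.9% the TATA box, 6.34% AP-1, 0.0508% the PPAR motif, 1.50% CArG and 30.5% Sp1. RefSeq promoters were matched for 7 of the 8 genes.

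Library depth was 13351137 to 21977663 reads over the 13222 genes, so that 3 reads corresponded to 0.14 to 0.22 CPM, the count scaled to the library's total. The lowest member value was 70 reads, for Ednra in control replicate 3. The share of reads from 21 mitochondrial genes was 13.9% to 39.6% in control, 5.98% to 10.8% in PAN, 8.77% to 19.4% with pioglitazone and 6.76% to 31.4% with GQ-16, so control and PAN did not overlap. As deposited, the median of all genes was higher by 0.28 on the log2 scale in PAN than in control, by 0.21 with pioglitazone and by 0.17 with GQ-16. Changes are therefore also given after median-ratio scaling, under which those medians were 0.00, 0.01 and 0.00. Library numbers of 25 or higher were held by 3 of 4 PAN rats, 1 rat of each drug group and 0 control rats, and what that number stands for is not given in the labels. Fits with the library number as a covariate used only this split, 25 or higher against lower. Of the other marker lists, 3 of 9 tubule markers were lower in PAN than in control (Slc12a3, Umod and Calb1, of which Slc12a3 did not pass after median-ratio scaling), with sums of 4481 to 7560 CPM in control and 2665 to 7862 CPM in PAN. Higher in PAN were 1 of 3 fibroblast markers (Col1a1) and 2 of 5 leukocyte markers (Cd68 and Csf1r), the latter not after median-ratio scaling. Over all 13222 genes 2874 were higher and 69 lower in PAN as deposited, and 942 and 199 after median-ratio scaling. Replicate numbers here follow the order of deposit within each group and only name a rat. The labels do not pair rats across groups, and p-values set a difference of group means against the variation between these rats.

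PAN glomeruli carried more Ednra transcript than control glomeruli, and no other member passed the test. Ednra was 2.49-fold higher in PAN on the log2(CPM + 1) scale, Ednrb was 0.71 of its control level without passing, and the other 6 genes differed by 0.86-fold to 1.54-fold. By limma with Benjamini-Hochberg adjustment over 13222 genes and an adjusted p under 0.05 as the threshold, 1 of 8 members was called. Over all genes 22.3% were called in the same comparison, and 8.63% after median-ratio scaling, where again 1 of 8 members was called. These shares of all genes depended on single rats: 2943 genes were called in PAN against control with all rats, 4964 without control replicate 1 and 838 without control replicate 3. With the library number as a covariate 393 genes were called. Against control with 1 rat left out, calls over all genes ran from 48 (without control replicate 2) to 1660 (without control replicate 1) for pioglitazone, beside 659 with all rats. The median log2 change of the members was 0.38 as deposited and 0.08 after median-ratio scaling, beside 0.28 and 0.00 for all genes.

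**Figure D1:**
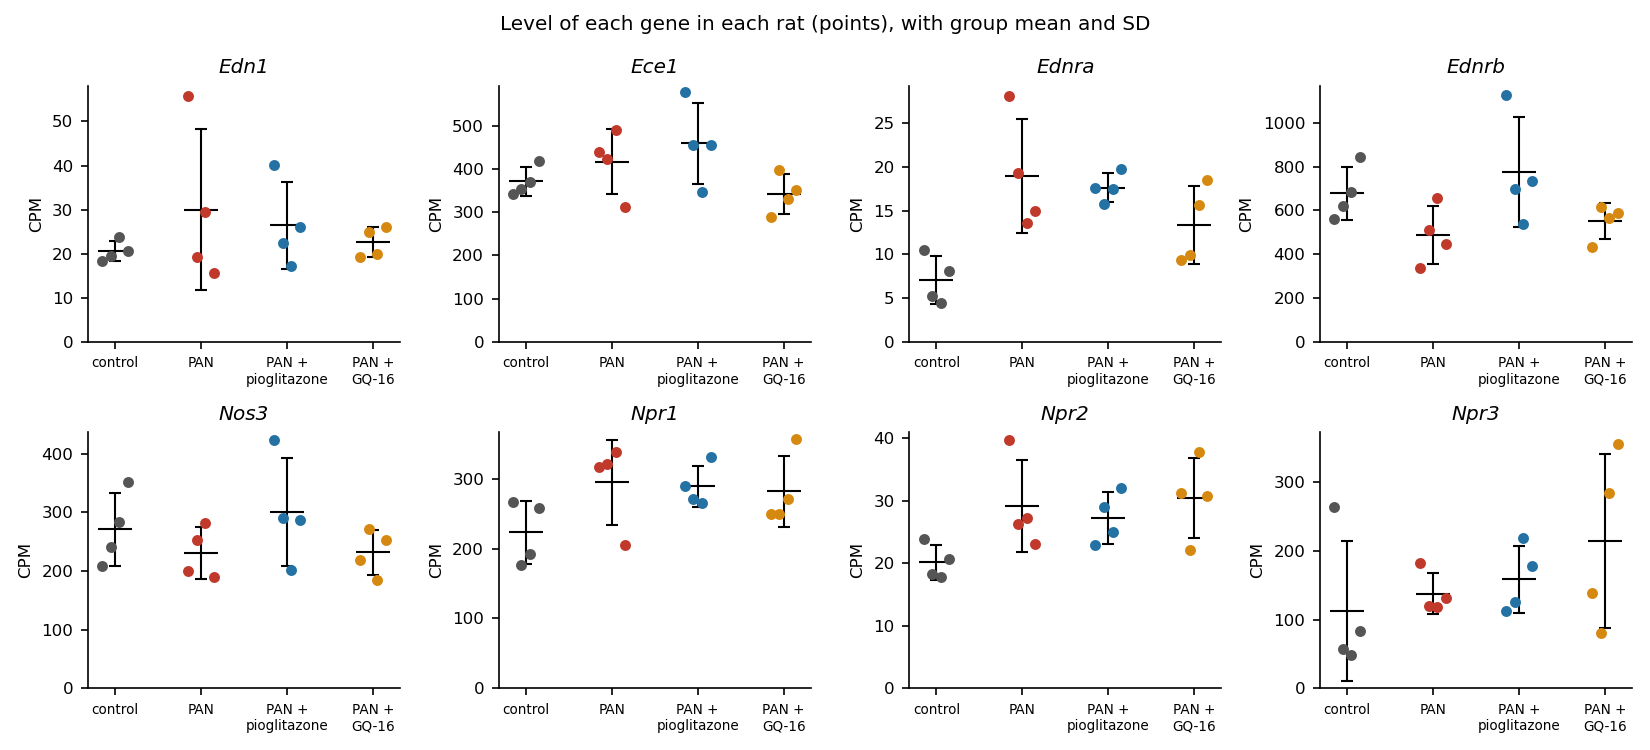
Level of each of the 8 genes in each rat, in CPM as deposited, with 1 panel per gene, each on its own axis from 0. Points are rats, horizontal lines are group means and error bars are SD (n = 4). The 4 PAN points of Ednra, from 13.5 to 28.0, all lie above the 4 control points, from 4.46 to 10.5, while the groups overlap in the other 7 panels.

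Edn1, the gene of the endothelin-1 peptide, stood at 18.4, 19.6, 23.9 and 20.6 CPM in the 4 control rats. The PAN rats had 55.9, 19.3, 29.4 and 15.5 CPM. PAN replicate 1 was far above the control range, replicate 3 above it, replicate 2 within it and replicate 4 below it. The mean was 20.6 ± 2.35 in control and 30.0 ± 18.2 in PAN (SD, n = 4), and limma gave a log2 change of 0.36 (SE 0.31, adjusted p = 0.372). Without PAN replicate 1 the log2 change was 0.01, and under median-ratio scaling with all rats it was 0.07. PAN replicate 1 also had the highest level of the 3 fibroblast markers measured, at a mean log2 CPM of 8.37 beside 4.09 to 4.97 in the other PAN rats, and the highest leukocyte marker level, 6.10 beside 4.71 to 5.40. Their part in its Edn1 level was not tested.

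Ece1, which cleaves the endothelin precursor, was among the steadiest members. It was 343 to 420.0 CPM in control (372 ± 34.0) and 313 to 491 CPM in PAN (417 ± 75.1, SD, n = 4). Its log2 change in PAN was 0.15 as deposited (adjusted p = 0.501, limma) and -0.15 after median-ratio scaling (adjusted p = 0.635), so no direction can be given. Its coefficient of variation within groups averaged 15.2%, the lowest of the 8 genes.

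Ednra, the constrictor receptor of mesangial and smooth muscle cells, was 10.5, 5.24, 4.46 and 8.06 CPM in the 4 control rats. In PAN it was 28.0, 19.3, 13.5 and 15 CPM. Every PAN rat was above every control rat. The means were 7.07 ± 2.78 and 19.0 ± 6.53 CPM (SD, n = 4), and the log2 change was 1.32 (SE 0.26, limma adjusted p = 0.00415). After median-ratio scaling it was 1.05 (SE 0.21, adjusted p = 0.00746), again without overlap. The call held in all 8 fits that left out 1 rat, with log2 changes from 1.12 to 1.51. It was lost with library number as a covariate (1.01, limma adjusted p = 0.0936) and with the tubule marker level as a covariate (1.04, limma adjusted p = 0.0594). After median-ratio scaling it was lost with the library number (0.83, limma adjusted p = 0.0997) and with the podocyte marker level as covariates (0.76, limma adjusted p = 0.0707). Those 4 were the losses among 10 alternatives that kept all rats, over which the log2 change ran from 0.76 to 1.43.

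Markers of mesangial cells moved with Ednra. Of 8 mesangial markers, 7 were higher in PAN under both scalings, among them the growth factor receptor gene Pdgfrb (limma adjusted p = 0.00226) and the integrin gene Itga8 (limma adjusted p = 0.00790). Over all genes 22.3% were called in that comparison as deposited and 8.63% after median-ratio scaling. The other called markers were Gata3, Des, Serpine2, Cspg4 and Fhl2, and which cells carried each marker was not tested. The exception was Ptn, at a log2 change of -0.14 (limma adjusted p = 0.660). The 8 markers summed to 902 to 1315 CPM in control and 2080 to 2816 CPM in PAN, with no marker at 0. Smooth muscle markers were higher for 3 of 4 measured (Acta2, Myh11 and Tagln; Myh11 not after median-ratio scaling), with sums of 24.6 to 68.8 CPM in control and 163 to 613 CPM in PAN. Within each library, the log2 ratio of Ednra to the mean of the mesangial markers was -3.51 to -3.24 in control and -3.66 to -2.97 in PAN. The difference of means was -0.04 (exact permutation test, two-sided, p = 0.800, n = 4 and 4), and -0.43 when the median over the markers replaced their mean. The part of mesangial or smooth muscle RNA in the Ednra difference was not tested further.

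Ednrb, the endothelin B receptor gene of the endothelium, was 563, 619, 686 and 843 CPM in control. The 4 PAN rats had 339, 512, 655 and 446 CPM. Replicates 1, 2 and 4 of PAN lay below all control rats, and replicate 3 lay within the control range. The means were 678 ± 121 and 488 ± 132 CPM (SD, n = 4), with a log2 change of -0.50 (unadjusted 95% interval -0.99 to -0.0043, limma adjusted p = 0.116). After median-ratio scaling the change was -0.80 (unadjusted 95% interval -1.36 to -0.24, limma adjusted p = 0.0742). Ednrb did not pass the adjusted threshold under either scaling. It passed in 1 of the 8 median-ratio fits that left out a rat, the fit without control replicate 1 (-0.95, limma adjusted p = 0.0358).

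The balance of both receptors was read within each library, where scaling has no effect. The log2 ratio of Ednra to Ednrb was -5.74, -6.89, -7.27 and -6.71 in control. The corresponding PAN values were -3.59, -4.73, -5.60 and -4.90. The groups did not overlap, and control replicate 1 and PAN replicate 3 were the nearest to each other. The mean ratio was higher in PAN by 1.95 log2 units, a 3.85-fold shift towards Ednra (exact permutation test, two-sided, p = 0.0286, the smallest that 4 against 4 allows). Adjusted over the 48 ratio tests of 8 ratios and 6 comparisons, that p was 0.229, the smallest of all, so no ratio passed after adjustment. The ratio is not corrected for transcript length, so its level does not say which receptor had more transcripts.

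**Figure D2:**
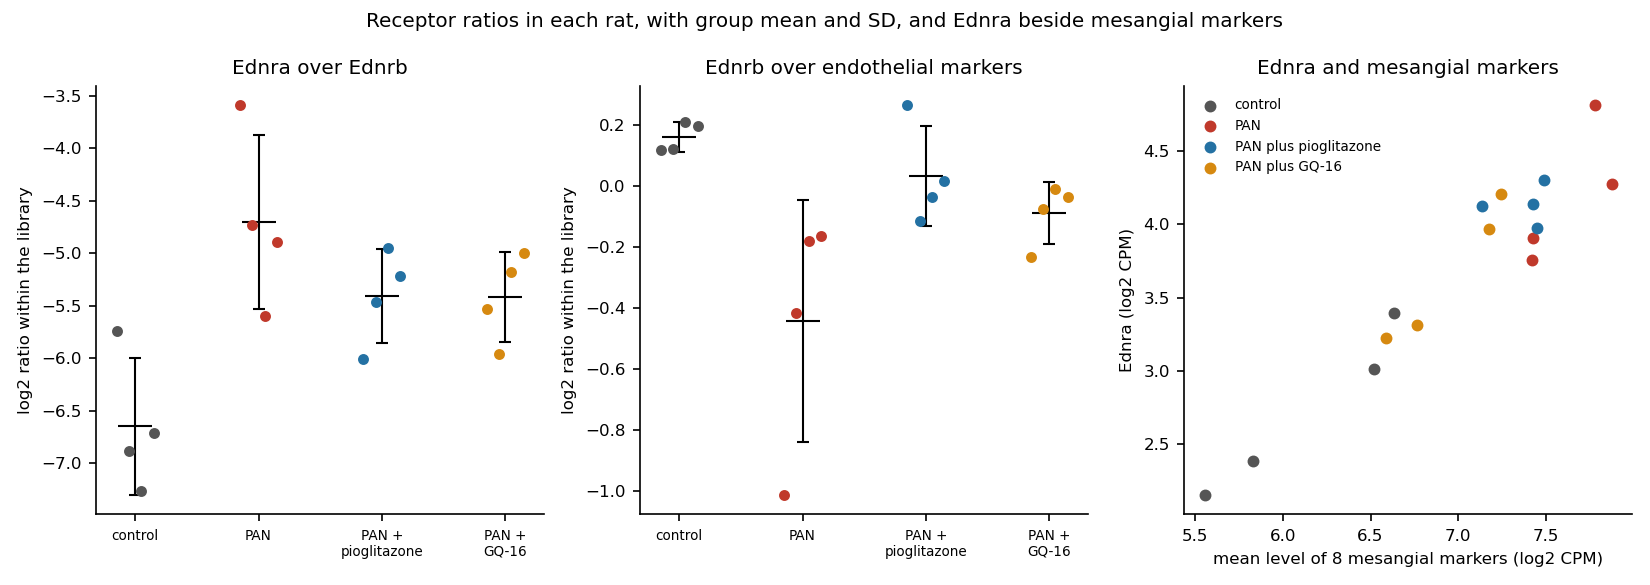
Left and middle, log2 ratio of Ednra to Ednrb and of Ednrb to the mean of 9 endothelial markers within each library, with group mean and SD (n = 4). Right, Ednra against the mean of 8 mesangial markers, both in log2 CPM, for the 16 rats. In the left panel control rats lie at -7.27 to -5.74, below all PAN rats and overlapping both drug groups. In the middle panel they lie at 0.12 to 0.21, above all other rats except 1 pioglitazone rat.

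Relative to endothelial markers, every PAN rat had less Ednrb than every control rat. The log2 ratio of Ednrb to the mean of 9 endothelial markers was 0.12, 0.12, 0.21 and 0.20 in control. It was -1.01, -0.42, -0.18 and -0.16 in PAN, without overlap, and PAN replicate 1 was lowest. The difference was -0.60 (exact permutation test, two-sided, p = 0.0286, adjusted p = 0.229). With the median over the markers it was -0.18. Of those 9 markers 2 were higher in PAN, where 22.3% of all genes were called. They were Plvap, a diaphragm protein of fenestrated endothelium (log2 change 1.39, limma adjusted p = 0.000633), and Eng (0.69, limma adjusted p = 0.0353), the latter not after median-ratio scaling. Their summed level was 5907 to 8545 CPM in control and 5458 to 8487 CPM in PAN, with no marker at 0.

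Nos3, which makes nitric oxide in endothelial cells, was 208, 240.4, 284 and 351 CPM in control. PAN rats had 199.6, 253, 282 and 189 CPM. The ranges overlapped, and the means were 271 ± 61.9 and 231 ± 44.0 CPM (SD, n = 4). The log2 change was -0.22 (limma adjusted p = 0.439), and -0.52 after median-ratio scaling (limma adjusted p = 0.204). Within libraries, the log2 ratio of Nos3 to the endothelial markers was -1.32 to -1.06 in control and -1.77 to -1.40 in PAN, a difference of -0.33 (exact permutation test, two-sided, p = 0.0286, adjusted p = 0.229). With the median over the markers the difference was 0.10, so its direction depended on how the markers were combined.

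Npr1, the guanylate cyclase receptor of atrial and B-type natriuretic peptides, was 266, 177, 192 and 258 CPM in control. Levels in PAN were 317, 321, 338 and 205 CPM. Replicates 1 to 3 of PAN were above all control rats, and replicate 4 was within the control range. The log2 change was 0.40 (95% interval 0.01 to 0.79, limma adjusted p = 0.112), and 0.10 after median-ratio scaling (limma adjusted p = 0.670). Without PAN replicate 4 it was 0.56 as deposited (limma adjusted p = 0.0303). After median-ratio scaling with 1 rat left out it ran from 0.018 to 0.24, and 0 of 8 such fits passed (lowest limma adjusted p = 0.140).

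Npr2, the receptor of C-type natriuretic peptide, was 23.9, 18.3, 17.7 and 20.6 CPM in control. Its PAN values were 39.8, 26.3, 27.3 and 23.0 CPM. The lowest PAN rat lay under the highest control rat. The log2 change of 0.49 (SE 0.18, limma adjusted p = 0.0595) became 0.20 after median-ratio scaling (limma adjusted p = 0.313). As deposited it passed without control replicate 1 (0.57, limma adjusted p = 0.0322) or without PAN replicate 4 (0.59, limma adjusted p = 0.0374).

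Npr3, the clearance receptor, was the most variable member, with a within-group coefficient of variation of 50.4% on average and a highest rat 7.42 times the lowest. It was 264, 56.5, 47.8 and 82.9 CPM in control. PAN values were 182, 120.0, 118 and 132 CPM. Control replicate 1 was above all PAN rats and the other 3 control rats were below all of them. The log2 change was 0.62 (SE 0.48, limma adjusted p = 0.325), and 0.32 after median-ratio scaling (limma adjusted p = 0.644). Without control replicate 1 it was 1.15 as deposited (limma adjusted p = 0.0378), while 0 of 8 fits that left out 1 rat passed after median-ratio scaling (0.074 to 0.78, lowest limma adjusted p = 0.159). Control replicate 1 had a mean podocyte marker level of 9.14 log2 CPM, beside 6.69 to 7.81 in the other control rats and 8.76 to 9.27 in PAN.

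Of 10 podocyte markers 3 were higher in PAN as deposited and 1 after median-ratio scaling, beside 22.3% and 8.63% of all genes. Their summed level was 2778 to 9662 CPM in control and 7698 to 11067 CPM in PAN, with no marker at 0. Within libraries, the log2 ratio of Npr3 to the mean of the podocyte markers was -1.10, -0.89, -1.11 and -1.44 in control. In PAN it was -1.76, -2.19, -2.13 and -1.72, lower in every rat than in any control rat. The difference was -0.82 (exact permutation test, two-sided, p = 0.0286, adjusted p = 0.229), and -0.87 with the median over the markers. The same ratio for Npr1 differed by -1.05 and the groups overlapped (exact permutation test, two-sided, p = 0.143). In a fit added after seeing the data, with the podocyte marker level as a covariate and median-ratio scaling, the log2 change in PAN was -0.65 for Npr3 (limma adjusted p = 0.183) and 0.05 for Npr1 (limma adjusted p = 0.907), so the direction for Npr3 turned.

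With pioglitazone no member differed from PAN by the test, and the largest member difference was in Ednrb. The limma fit called 0 of 8 members and 0% of all genes under either scaling. As deposited, 1 member had an unadjusted limma p under 0.05, beside 495 of 13222 genes. Voom on the recovered reads also called 0 members. Ednrb was 1128.5, 696, 538 and 735 CPM with pioglitazone (774 ± 251) beside 488 ± 132 in PAN (SD, n = 4). Replicates 1, 2 and 4 exceeded all PAN rats. The log2 change was 0.65 (95% interval 0.16 to 1.15, limma adjusted p = 0.916), and 0.74 after median-ratio scaling.

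The ratio of Ednrb to the endothelial markers was 0.26, -0.11, -0.04 and 0.02 with pioglitazone, above all 4 PAN rats. The difference was 0.48 (exact permutation test, two-sided, p = 0.0286, adjusted p = 0.229), and 0.25 with the median over the markers. Against control the same ratio differed by -0.13 (exact permutation test, two-sided, p = 0.171), and by 0.071 with the median over the markers. Endothelial markers summed to 6197 to 11253 CPM with pioglitazone, and pioglitazone replicate 1 had the highest endothelial marker level of all rats, 9.88 log2 CPM, as well as the highest Ednrb, Ece1 and Nos3.

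Ednra stayed near the PAN level with pioglitazone. It was 17.6, 15.7, 17.4 and 19.8 CPM (17.6 ± 1.66, SD, n = 4), a log2 change of -0.05 from PAN (95% interval -0.61 to 0.50, limma adjusted p = 0.975). All 4 pioglitazone rats lay within the PAN range. Against control the log2 change was 1.27 (SE 0.26, limma adjusted p = 0.0176), and 1.08 after median-ratio scaling (limma adjusted p = 0.0200), without overlap in either. In that comparison 1 of 8 members was called under both scalings, where 4.98% of all genes were called as deposited and 2.84% after median-ratio scaling. Of 10 alternatives that kept all rats 9 kept the call, and it was lost with the tubule marker covariate (0.87, limma adjusted p = 0.337). It was also lost without control replicate 2 or 3 or without pioglitazone replicate 2 or 4, with limma adjusted p up to 0.0813. After median-ratio scaling it held in 3 of 8 fits that left out 1 rat, those without control replicate 1 or 4 or pioglitazone replicate 3. In the other 5 fits the limma adjusted p was up to 0.0839. Among rats with library numbers of 15 or lower it held (1.21, limma adjusted p = 0.0299). Of the 8 mesangial markers 7 were again higher than in control, and the 8 summed to 1597 to 2349 CPM. Under both scalings 1 of 4 smooth muscle and 1 of 3 fibroblast markers were higher than in control, and 1 of 9 tubule markers was lower. The mean tubule marker level was 7.40 ± 0.36 log2 CPM with pioglitazone and 8.25 ± 0.17 in control (SD, n = 4). The part of these cells in the Ednra difference was not tested further.

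The other members differed little between pioglitazone and PAN. Edn1 was 40.2, 22.4, 17.1 and 26.1 CPM, a log2 change of -0.07 from PAN. Ece1 was 347 to 578 CPM and Nos3 201 to 424 CPM, with log2 changes from PAN of 0.14 and 0.35. For the natriuretic peptide receptors the log2 changes were -0.01 for Npr1, -0.07 for Npr2 and 0.17 for Npr3. As deposited 4 of 8 members had a log2 change above 0 from PAN, and after median-ratio scaling 8 of 8 did, none passing the test, with 0.0088 for Edn1, 0.075 for Npr1 and 0.0067 for Npr2. As deposited, the 95% intervals of these 6 genes all included 0, the widest being that of Npr3, from -0.85 to 1.20.

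With GQ-16 no member differed from PAN by the test, and Ednra lay between control and PAN. The limma fit called 0 of 8 members beside 0.0151% of all genes. As deposited, 0 members had an unadjusted limma p under 0.05, beside 1094 of 13222 genes, and voom called 0 members. Ednra was 9.37, 9.92, 15.6 and 18.5 CPM (13.4 ± 4.44, SD, n = 4). Replicates 1 and 2 lay below all PAN rats and below control replicate 1, and replicates 3 and 4 lay within the PAN range. The log2 change from PAN was -0.48 (95% interval -1.03 to 0.08, limma adjusted p = 0.659), and from control it was 0.84 (SE 0.26, limma adjusted p = 0.110). Mesangial markers followed the same order of groups, at 1309 to 1908 CPM with GQ-16, and 0 of the 8 passed against control or against PAN.

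Against control, GQ-16 rats had 0 of 8 members called under both scalings, beside 0.151% of all genes as deposited and 0.741% after median-ratio scaling. As deposited, 3 members had an unadjusted limma p under 0.05, beside 3165 of 13222 genes, and voom called 0 members. Those 3 were Ednra, Npr2 (log2 change 0.56, limma adjusted p = 0.113) and Npr3 (1.05, limma adjusted p = 0.201). All 3 passed when control replicate 1 was left out, at 1.03 for Ednra (limma adjusted p = 0.0272), 0.64 for Npr2 (limma adjusted p = 0.0445) and 1.58 for Npr3 (limma adjusted p = 0.0285). The calls over all genes in that comparison rose from 20 to 1572 of 13222 without that rat. After median-ratio scaling without that rat, Ednra and Npr3 passed.

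Npr3 reached its highest single values with GQ-16, at 139, 79.9, 285 and 355 CPM. Replicates 3 and 4 exceeded every rat of the other groups. Podocyte marker levels took the same order among these 4 rats, at 8.86, 7.89, 9.48 and 9.81 log2 CPM. Npr2 was 31.3, 22.1, 37.7 and 30.8 CPM, and Npr1 was 249.5, 250.2, 271 and 357 CPM. Their log2 changes from PAN were 0.43 for Npr3, 0.07 for Npr2 and -0.06 for Npr1, and after median-ratio scaling 0.55, 0.19 and 0.071, so that Npr1 turned sign. Each 95% interval included 0 under both scalings.

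On the endothelial side, Ednrb was 434, 617, 567 and 589 CPM in the GQ-16 rats, with a log2 change from PAN of 0.20 (limma adjusted p = 0.863). Its ratio to the endothelial markers was -0.23, -0.08, -0.01 and -0.04, below every control rat. The difference from control was -0.25 (exact permutation test, two-sided, p = 0.0286, adjusted p = 0.229), and from PAN it was 0.35 (exact permutation test, two-sided, p = 0.0857). With the median over the markers these differences were -0.10 and 0.080. Nos3 was 185 to 272 CPM, Ece1 289 to 398 CPM and Edn1 19.3 to 25.9 CPM, with log2 changes from PAN of 0.01, -0.27 and -0.24.

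Between the drug groups the fit called 0 of 8 members and 0% of all genes under either scaling, and voom called 0 members. As deposited, 1 member had an unadjusted limma p under 0.05, beside 786 of 13222 genes. That member was Ece1, lower with GQ-16 by a log2 change of -0.41 (95% interval -0.77 to -0.05, limma adjusted p = 0.772). Ednrb was 0.73 and Ednra 0.75 of the pioglitazone level with GQ-16, with 95% intervals of -0.94 to 0.04 and -0.98 to 0.13 on the log2 scale. The ratio of Ednra to Ednrb had nearly the same mean in both drug groups, -5.41 with pioglitazone and -5.42 with GQ-16, beside -4.70 in PAN and -6.65 in control. Against control that ratio was higher by 1.24 with pioglitazone and by 1.23 with GQ-16 (exact permutation test, two-sided, p = 0.0571 for each). Those comparisons share the control rats.

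**Figure D3:**
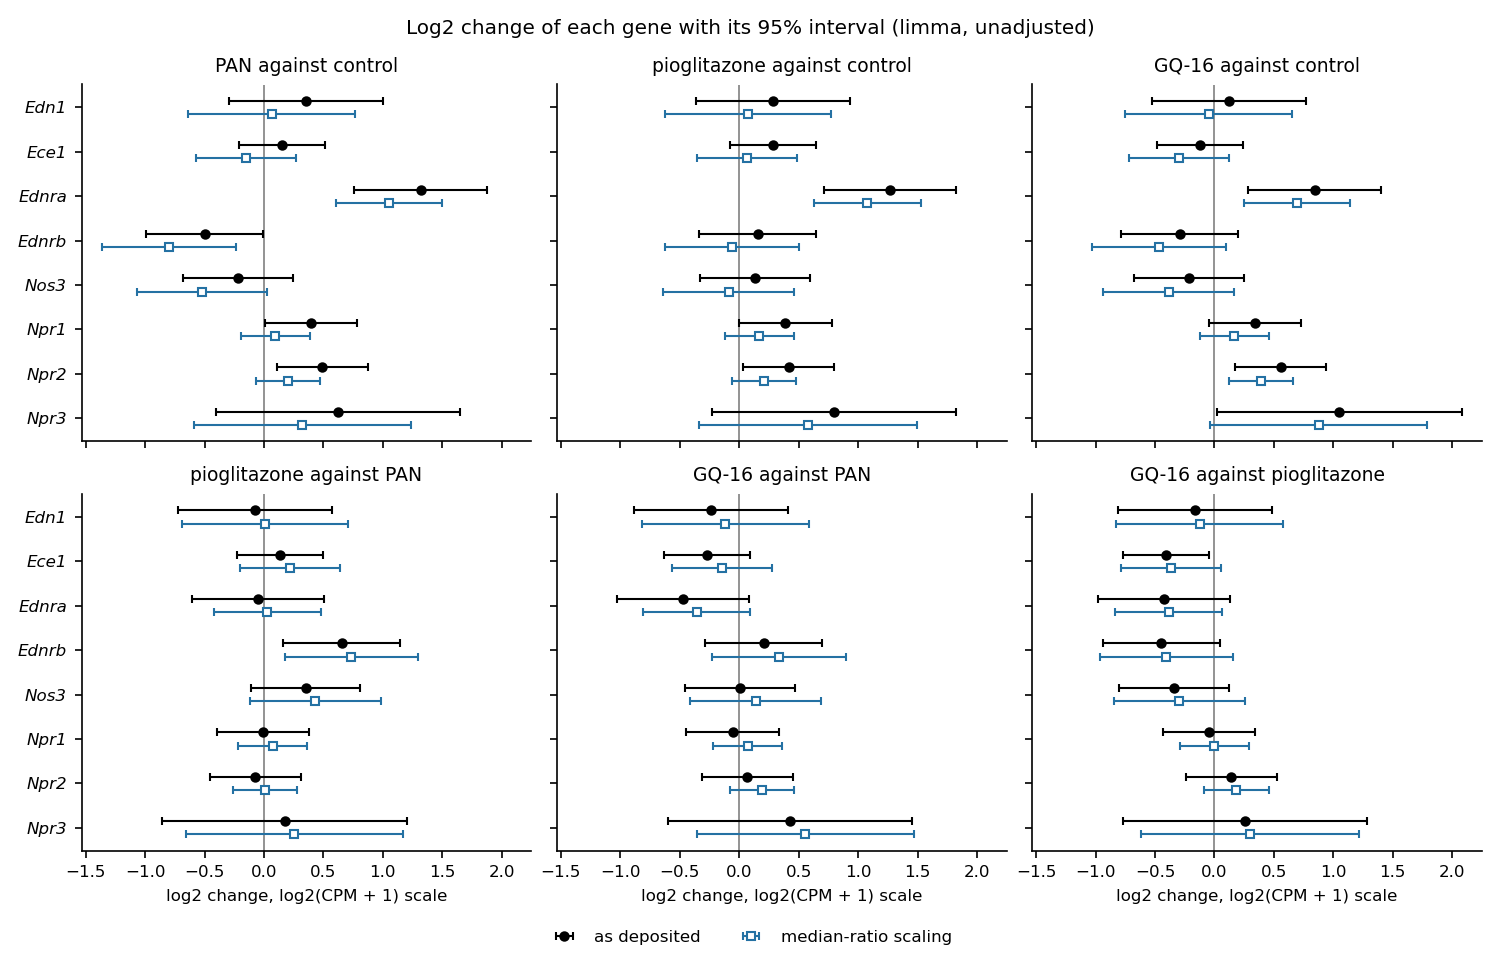
Log2 change of each gene in 6 comparisons on the log2(CPM + 1) scale, with its unadjusted 95% interval from limma, as deposited (filled circles) and after median-ratio scaling (open squares). Ednra lies to the right of 0 in all 3 comparisons with control, at 1.32, 1.27 and 0.84 as deposited, and the interval of Ednrb lies to the right of 0 for pioglitazone against PAN.

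Downstream of nitric oxide and natriuretic peptides, the cyclic GMP genes included several that rose with PAN. Of 19 genes on that list 14 were in the table, and 6 were higher and 0 lower in PAN than in control, where 22.3% of all genes were called. After median-ratio scaling 4 were higher, all of them among those 6, beside 8.63% of all genes. The median log2 change of the 14 was 0.57 as deposited and 0.27 after median-ratio scaling, beside 0.28 and 0.00 for all genes. Soluble guanylate cyclase, the nitric oxide sensor, is a dimer, and the genes of both of its main subunits rose.

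Gucy1b1, the beta subunit, was 6.42 to 20.3 CPM in control and 22.5 to 39.0 CPM in PAN. Its log2 change was 1.42 (SE 0.30, limma adjusted p = 0.00596), and 1.14 after median-ratio scaling (limma adjusted p = 0.0128). Gucy1a1, the alpha subunit, was 14.6 to 39.9 CPM in control and 40.2 to 63.2 CPM in PAN, with a log2 change of 1.09 (limma adjusted p = 0.0136). As deposited, the groups overlapped in neither gene. Mrvi1, a substrate of cyclic GMP-dependent protein kinase in smooth muscle, rose by 1.21 (limma adjusted p = 0.00354), and Pde3a, a phosphodiesterase inhibited by cyclic GMP, by 1.12 (limma adjusted p = 0.0109). Pde5a, which degrades cyclic GMP, and Vasp, a kinase substrate, passed only as deposited, at 0.70 and 0.56. These genes are also expressed in mesangial and smooth muscle cells, whose markers were higher in PAN as given above, and the part of those cells was not tested.

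In the drug groups the median change of this list against control was 0.44 with pioglitazone and 0.18 with GQ-16, beside 0.21 and 0.17 for all genes. After median-ratio scaling the list's medians were 0.22 and 0.028, beside 0.01 and 0.00 for all genes. Against control, where 4.98% of all genes were called, pioglitazone rats had 4 of 14 higher, namely Gucy1b1 (log2 change 1.15), Mrvi1 (1.10), Pde3a (1.08) and Pde5a (0.67), of which Mrvi1 passed after median-ratio scaling (0.89, limma adjusted p = 0.0293). GQ-16 rats had 0 of 14 called against control, and neither drug group had a gene of this list called against PAN. Pde5a was 11.2 to 13.5 CPM in PAN and 5.17 to 8.08 CPM in GQ-16 rats, and its log2 change of -0.75 did not pass (limma adjusted p = 0.187). The difference between the drug groups in Pde5a was -0.72 for GQ-16 against pioglitazone and did not pass either (limma adjusted p = 0.513).

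**Figure D4:**
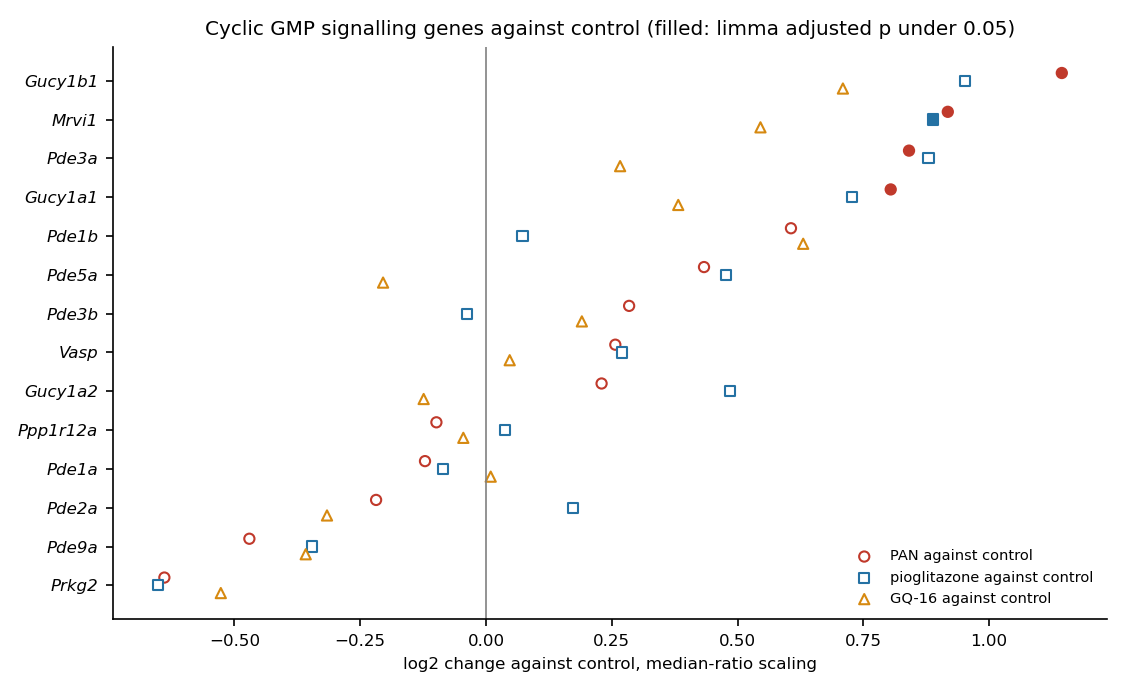
Log2 change against control of the 14 cyclic GMP signalling genes after median-ratio scaling, for PAN (circles), pioglitazone (squares) and GQ-16 (triangles). Filled symbols passed the limma test. The 4 genes at the top, Gucy1b1, Mrvi1, Pde3a and Gucy1a1, passed in PAN, and Mrvi1 also with pioglitazone.

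Of 23 listed genes that make or limit nitric oxide 18 were in the table. As deposited 3 of the 18 were higher and 0 lower in PAN, and after median-ratio scaling 2 were higher, near the 22.3% and 8.63% of all genes called, while the list's median was -0.10 as deposited and -0.39 after median-ratio scaling. Dynll1, a dynein light chain that binds neuronal nitric oxide synthase, was 59.9 to 109 CPM in control and 156 to 204 CPM in PAN (log2 change 1.10, limma adjusted p = 0.00255). Ddah2, which degrades an endogenous synthase inhibitor, rose by 0.61 (limma adjusted p = 0.00893). Hsp90aa1, a chaperone that binds the endothelial synthase, passed only as deposited (0.44, limma adjusted p = 0.0425). Dynll1 was also higher with pioglitazone than in control (1.01, limma adjusted p = 0.0158), and with GQ-16 after median-ratio scaling only (0.74, limma adjusted p = 0.0261). The neuronal and inducible synthase genes were not analysed here.

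Of 14 further endothelin pathway genes 11 were in the table, and 1 was higher in PAN, where 22.3% of all genes were called. It was Plcb3, a phospholipase C that acts after Gq-coupled receptors (0.38, limma adjusted p = 0.0458). It did not pass after median-ratio scaling (0.08). The genes of the Gq proteins, Gnaq and Gna11, had log2 changes of -0.07 and 0.01. Of 7 genes for natriuretic peptides and their processing 2 were in the table, Furin and Ide, with log2 changes of 0.14 and 0.03, and neither was called in any comparison. The endothelin-2, endothelin-3 and natriuretic peptide genes themselves were not analysed here.

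Across the 16 libraries, among genes with a mean of at least 5 CPM, the genes whose pattern was most like that of Ednra were Tinagl1, Map6 and Tpst1. Likeness was the root mean square difference on log2(CPM + 1), after median-ratio scaling and centring, and was 0.15, 0.16 and 0.17, beside 0.51 for the spread of Ednra itself. Tinagl1 was 114 ± 37.2 CPM in control rats and 308 ± 70.8 CPM in PAN rats (SD, n = 4). It was 255 ± 24 CPM in pioglitazone rats and 216 ± 55.7 CPM in GQ-16 rats.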

How the data were processed

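Poly(A) RNA of sieved glomeruli from 16 rats was sequenced, and the values are the deposited log2 CPM (counts scaled to the library total) of 13222 genes. Per the submitters' processing notes, the authors used HISAT2, featureCounts of Subread, limma and the Rnor_6.0 build. Versions and the strand setting of the counting are not given in the sources used here, so reads of overlapping genes may not be separated. Every gene of the table reached 2 CPM in at least 8 libraries.

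Whole reads were recovered from the values with an offset of 0.5 read per gene and 1 read per library: 100% of values came out whole within 0.05 read. CPM was taken from the deposited log2 values. Groups were compared on the log2(CPM + 1) scale by limma 3.58.1 (R 4.3.3), so changes of low genes are understated, with 4 group means, a trended variance and Benjamini-Hochberg adjustment over 13222 genes. Within-library ratios used the deposited log2 values and exact permutation tests over 70 assignments. The fit was tested on simulated data. Alternatives changed the scaling, pseudocount, low-value limit, samples, covariates and test (voom on recovered reads), and left out rats.

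The 8 genes are all named. Pathway genes are named where called, at most the 4 largest changes per list, comparison and direction, and Vasp and Pde5a in PAN beyond that after their values were seen. Also outside this rule are the uncalled Pde5a changes of GQ-16 from PAN and from pioglitazone. The uncalled genes Gnaq, Gna11, Furin and Ide are outside it too. The 3 likest genes are given for each member called. The members and lists were chosen with earlier results of these data known, and the promoter motifs after the values were seen. Promoters are RefSeq's, from GRCr8.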

Additional observations from a re-analysis of the deposited data

Results flagged for a closer look

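In 4 of the 64 groups of 4 rats examined, 1 rat stood far from the other 3. Chance gives about 1 in 20 such groups, or 3.2 here. Npr1 in PAN replicate 4 was 205 CPM, beside 317 to 338 in the other PAN rats. Npr3 in control replicate 1 was 264 CPM, beside 47.8 to 82.9 in the other control rats. The log2 ratio of Nos3 to the endothelial markers was -1.77 in PAN replicate 1, beside -1.43 to -1.40, and -1.62 in GQ-16 replicate 3, beside -1.26 to -1.22.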

How the results depend on the processing

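No paired analysis was possible because the labels number no replicates within groups: the replicate numbers used here follow the order of deposit and pair no rats. The main analysis used all 13222 genes with no added limit on low values, so the planned fit without such a limit was the same fit and was not run separately. Alternatives added after seeing the data were median-ratio scaling combined with a left-out rat, with the library number, or with the podocyte marker level. The count of members called in PAN against control was 1, and it was 0 with the library number or the tubule markers as a covariate and, after median-ratio scaling, with the library number or the podocyte markers. For pioglitazone against control it was 0 with the tubule markers. With 1 rat left out, these counts ran in the comparisons with control from 1 to 3 (PAN), 0 to 2 (pioglitazone) and 0 to 3 (GQ-16). The highest count came without control replicate 1 in each of these comparisons, and for PAN also without PAN replicate 4. Without control replicate 1, calls over all genes rose as well, from 2943 to 4964 (PAN), 659 to 1660 (pioglitazone) and 20 to 1572 (GQ-16). For GQ-16 the lowest such count was 0, without GQ-16 replicate 3. The cause was not tested.

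Of 48 member changes 22 had another sign under an alternative that kept all rats, and 18 with a rat left out. For PAN against control, Ece1 was -0.15 under median-ratio scaling, -0.19 after quantile normalization, -0.0026 with the library number, -0.15 with the tubule markers, -0.16 by voom and -0.21 with the library number and median-ratio scaling. Edn1 was -0.36 with the tubule markers and -0.17 with the library number and median-ratio scaling, where Npr1 was -0.16. With the podocyte markers and median-ratio scaling, Npr3 was -0.65 for PAN, -0.19 for pioglitazone and -0.18 for GQ-16 against control. Ednra for pioglitazone against PAN was 0.028 under median-ratio scaling, 0.056 after quantile normalization, 0.15 with the library number, 0.017 by voom, and with median-ratio scaling 0.17 with the library number and 0.087 with the podocyte markers. Leaving out 1 rat under either scaling gave -0.26 to 0.28 for Ece1 and -0.26 to 0.60 for Edn1 in PAN against control, and -0.19 to 0.20 for Ednra in pioglitazone against PAN.

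Of 48 ratio differences 11 had another sign with a changed calculation and 11 with a rat left out. With the median over the markers, Nos3 over endothelial markers was 0.10 for PAN, Ednrb over endothelial markers 0.071 for pioglitazone, and Ednra over mesangial markers -0.10 for pioglitazone and -0.16 for GQ-16, all against control. On log2(CPM + 1), GQ-16 against pioglitazone gave 0.024 for Ednra over Ednrb and 0.0059 for Ednra over mesangial markers. Leaving out 1 rat, these ran from -0.21 to 0.17 and from -0.10 to 0.056. In PAN against control, Npr3 over Npr2 ran from -0.11 to 0.56 and Ednra over mesangial markers from -0.20 to 0.031. Depth was 70 reads or more for every member value and did not limit detection of a member.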
